A study of Homo sapiens with 16 samples.

Results

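The inhibitor effect that A375 melanoma lung metastases shared on a high fat and a ketogenic diet was measured as the mean, over both diets, of the log2 ratio of inhibitor-treated over untreated metastases. All 16 RNA-seq libraries of the series entered this comparison. They form 4 groups of 4: metastases given BRAF-kinase and MEK 1/2 inhibitors in mice on the high fat diet, the same inhibitors on the ketogenic diet, and untreated metastases on each of these diets. Inhibitors were given by oral gavage 3 times a week for 5 weeks, and untreated mice are labelled as having received none, with no mention of a vehicle gavage. A375 is a human melanoma cell line. Cells of its MA2-Luc derivative were transferred by the retro-orbital route into NSG mice, which lack lymphocytes but keep their own lung, blood vessel and myeloid cells. Metastases in the lungs were then collected. The sources used here give no names or doses of the inhibitors, no age of the mice and no composition of the diets. The series' design text also speaks of culture, so it cannot be told whether the RNA came from tissue or from cells grown out of it. Replicates are called biological, but nothing ties a library to a mouse, so p-values measure the spread between these 4 libraries per group.

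BRAF is a kinase that phosphorylates the MEK1 and MEK2 kinases, which in turn activate the ERK kinases. In melanoma with an activated BRAF this cascade drives transcription of ERK feedback genes such as the DUSP and SPRY families, of AP-1 factors and of cyclin D1, and blocking BRAF together with MEK is a standard combination against such tumours. Melanoma cells that persist under these drugs are known to change their pigment programme, matrix genes, receptors and cell cycle genes.

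Of 26475 genes in the table, 16012 had enough counts to be tested with edgeR's quasi-likelihood test, and 6053 passed the test of the mean effect at an adjusted p under 0.05 (37.8% of those tested, 19.4% higher and 18.4% lower with inhibitors). Of these, 5624 had the same sign on both diets and 429 had opposite signs. Of the calls 51.2% were higher with inhibitors, and 87.6% were higher with scaling by library size alone, which moved the median of all genes to 0.27. A gene was called shared when it passed this test, had the same sign on both diets and its smaller log2 effect was at least 0.5 of its larger one. This left 2229 shared genes, 1176 higher with inhibitors (7.34% of genes tested) and 1053 lower (6.58%). The remaining 3395 same-sign genes fell below the ratio, and the effect was larger on the high fat diet in 3173 of them. Just inside the limit were EI24 and CDH24, the second with a ratio of 0.5001. Just outside were TMEM87B at 0.4999 and WBSCR22 at 0.4998, so the limit divides genes with nearly equal values.

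The values in this paragraph come from the contrasts and libraries that chose the shared genes, so they describe the set and nothing is read from them. Tested on the high fat diet alone, 1546 of the 2229 passed (against 42.3% of all genes tested there), and tested on the ketogenic diet alone 183 passed (against 1.74%). Both single-diet tests were passed by 178 and neither by 678. Of the shared genes, 1636 had the larger effect on the high fat diet and 593 had it on the ketogenic diet. The median log2 effect of the higher shared genes was 0.45 on the high fat and 0.35 on the ketogenic diet, and that of the lower ones was -0.67 and -0.51, against -0.03 and 0.012 over all genes tested. Across all tested genes the effects on the 2 diets, which share no library, correlated with Pearson's r = 0.389 and Spearman's rho = 0.41; genes are not independent replicates. In 621 shared genes every inhibitor-treated library lay on one side of every untreated library on both diets (344 higher and 277 lower). Over all genes tested 4.97% were separated in this way, 2.8% higher and 2.16% lower. A direct test of the difference between diets, passed by 1444 genes (9.02%), was passed by 4 of the shared genes, a number that the limit on the ratio itself keeps low. Without the libraries above 30% ribosomal RNA 0 genes passed that edgeR test, with 2919 at an unadjusted p under 0.05. A difference that does not pass does not show equal effects, and the interval of the difference is given below for some of the leading genes. For other leading genes it left out 0: JUN (-1.21, 95% interval -2.15 to -0.26), EVI2A (-1.20, 95% interval -1.96 to -0.44), GPR153 (1.05, 95% interval 0.09 to 2.00), DNAH9 (1.38, 95% interval 0.62 to 2.14) and MOXD1 (1.11, 95% interval 0.34 to 1.89). On simulated counts with these library sizes and 50 changed genes per class among 15870, a 2-fold change on both diets was classed as shared for 92% of genes and a 1.5-fold change for 64%, while a 2-fold change on the high fat diet only was classed as shared for 4%. The simulated libraries held no ribosomal share that moved with treatment, no deviating library and far fewer changed genes than passed here. These percentages therefore need not hold for the measured libraries.

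**Figure D1:**
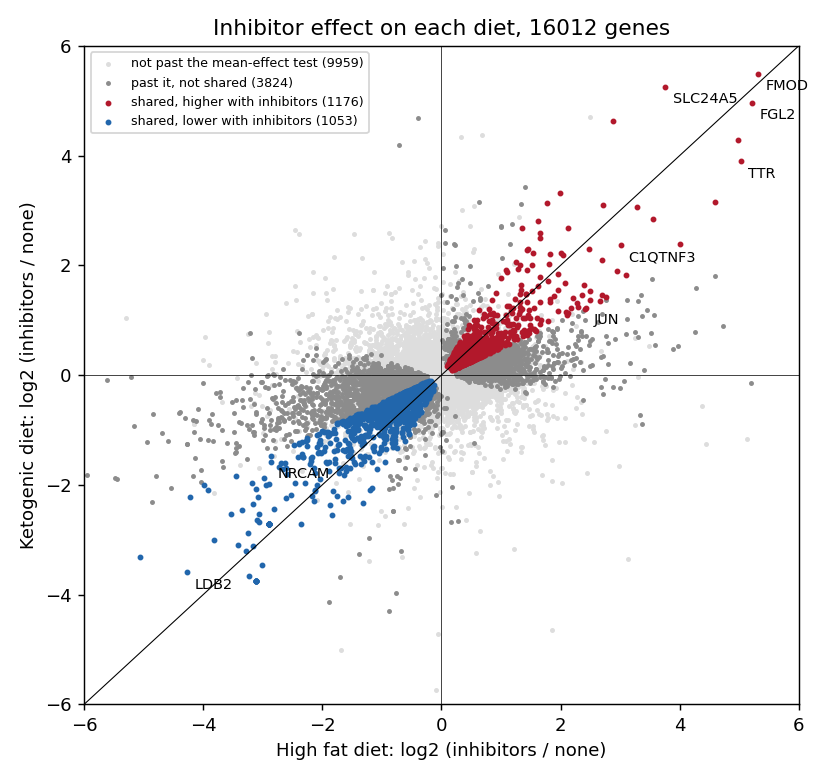
Each point is a gene, with its log2 ratio of inhibitor-treated over untreated metastases on the x axis for the high fat diet and on the y axis for the ketogenic one. Red (1176) and blue (1053) genes are shared and lie around the diagonal line of equal effect, from LDB2 at the lower left to FMOD at the upper right. Of all genes tested 18 lie outside the axes, and the grey genes near the horizontal axis changed mostly on the high fat diet.

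Levels are given in CPM, a gene's count scaled to a library of 1 M (mega) counts. Summed counts were 37.1 to 77.3 M per library, so counting error is small for all but the lowest genes. Ribosomal RNA took 17.3% ± 2.2 of counts in inhibitor-treated and 32.7% ± 13.5 in untreated metastases on the high fat diet, and 7.08% ± 2.0 in treated and 23.7% ± 7.97 in untreated metastases on the ketogenic diet (SD, n = 4 each). The mean log2 difference was -1.28 with p = 0.000408, the smallest that the two-sided exact permutation test within diets can give. This share therefore moves with treatment, and its part in the gene results cannot be told apart from the treatment: with it as a covariate 607 genes passed and 371 were shared. With the ribosomal RNA rows taken out before TMM scaling 6040 genes passed and 2176 were shared, 2115 of them shared in both fits. Scaling by library size alone, used here as an alternative, counts these rows in the library size. Ketogenic inhibitor replicate 4 and high fat untreated replicate 4 were among the 4 libraries least like their groups, and without all 4 libraries 8353 genes passed and 2828 were shared, 1143 of them shared in both fits. The melanoma markers SOX10 (726 to 934 CPM) and MITF (99.2 to 141 CPM) were present in every library, while the pigment markers PMEL, MLANA and GPR143 stayed at or below 5.07 CPM.

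FMOD, FGL2 and TTR, genes of secreted proteins, were among those that rose most of the shared genes that averaged at least 5 CPM in the treated groups and showed no overlap between treated and untreated libraries. FMOD (fibromodulin, a small proteoglycan that binds collagen fibrils; chr1:203340628-203351758, minus strand in GRCh38) had 7.95, 4.57, 4.79 and 4.21 CPM with inhibitors and 0.0948, 0.108, 0.263 and 0.0875 CPM without them on the high fat diet. FMOD had 14.5, 8.81, 9.36 and 11.2 CPM with inhibitors and 0.278, 0.0306, 0.37 and 0.315 CPM without them on the ketogenic diet. Every treated library was above every untreated one, by 42.4-fold in the mean fit (log2 effect 5.41, SE 0.33, adjusted p = 1.58e-07). The effect was 5.32 on the high fat and 5.50 on the ketogenic diet, a difference of 0.18, 95% interval -1.29 to 1.64. FGL2 (fibrinogen-like 2, an immune regulator with a secreted and a membrane form; chr7:77193371-77199848, minus strand) had 92.8, 38.3, 90.1 and 103 CPM with inhibitors and 2.45, 1.49, 2.23 and 2.52 CPM without them on the high fat diet. FGL2 had 105, 64.1, 40.8 and 62.3 CPM with inhibitors and 1.58, 0.26, 4.95 and 2.11 CPM without them on the ketogenic diet. Its groups did not overlap, the lowest treated library being high fat replicate 2, and its log2 effect was 5.09, SE 0.43, adjusted p = 5.82e-06. The difference between diets was -0.25, 95% interval -1.90 to 1.39.

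The promoter of FGL2 is shown because the genes of AP-1 transcription factors rose as well (described with the AP-1 list). It spans 250 bases before to 50 bases after the RefSeq start on chr7:77199770-77200069, minus strand, GRCh38.p14, and the capitals mark the 1 match to the AP-1 motif TGANTCA, searched on both strands, 49 bases before the start; 7.71% of 35116 promoters of this length hold such a match.
FGL2 promoter: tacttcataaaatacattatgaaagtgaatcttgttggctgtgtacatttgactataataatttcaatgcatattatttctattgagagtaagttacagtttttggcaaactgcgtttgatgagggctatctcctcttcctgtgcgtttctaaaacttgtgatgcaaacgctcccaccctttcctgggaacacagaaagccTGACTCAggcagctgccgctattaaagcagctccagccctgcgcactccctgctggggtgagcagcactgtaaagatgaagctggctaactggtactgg
The match describes the letters in this window and does not show binding. The motif also occurs in the promoters of F2RL2, which rose, and of BBC3, ME1 and ERBB2, which fell.

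TTR (transthyretin, carrier of thyroxine and of retinol-binding protein; chr18:31557010-31599021, plus strand) had 57.5, 24, 54.8 and 35.1 CPM with inhibitors and 1.26, 2.01, 1.03 and 0.927 CPM without them on the high fat diet. TTR had 75.2, 22.7, 16.6 and 38.9 CPM with inhibitors and 1.64, 1.52, 3.33 and 3.98 CPM without them on the ketogenic diet. It was separated on both diets (log2 effect 4.47, SE 0.37, adjusted p = 5.45e-06; difference -1.14, 95% interval -2.58 to 0.30). TTR is also on the list of erythroid and plasma markers used below. C1QTNF3 (a secreted protein of the C1q and TNF related family) had 93.9, 67.4, 83.8 and 85.5 CPM with inhibitors and 7.47, 10.1, 10.9 and 12.5 CPM without them on the high fat diet. C1QTNF3 had 95.1, 94.8, 102 and 168 CPM with inhibitors and 17.3, 11.9, 34.7 and 25.1 CPM without them on the ketogenic diet. Treated and untreated libraries were separate on both diets, and ketogenic inhibitor replicate 4 was the highest library (log2 effect 2.69, SE 0.20, adjusted p = 2.04e-06).

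P3H2 (prolyl 3-hydroxylase 2, which modifies collagen; chr3:189956728-190122437, minus strand) was one of the genes that rose by nearly the same size on both diets, at 1.42 on the high fat and 1.47 on the ketogenic diet. It had 79.3, 59.4, 96.6 and 109 CPM with inhibitors and 29.3, 29, 29.2 and 41.1 CPM without them on the high fat diet. P3H2 had 82.8, 72.1, 69.4 and 79.5 CPM with inhibitors and 24.8, 21.3, 34.6 and 28.6 CPM without them on the ketogenic diet. No treated library fell to the level of an untreated one (log2 effect 1.45, SE 0.13, adjusted p = 3.15e-06; difference 0.05, 95% interval -0.47 to 0.58). With similarly even effects stood TRIM51 (a tripartite-motif protein; log2 effect 1.90), KCTD12 (an auxiliary subunit of GABA-B receptors; 1.38) and SYNC (an intermediate filament protein; 1.21). EGR2 (an immediate early transcription factor; 1.52) had even effects that rest on ketogenic inhibitor replicate 4, as described with the AP-1 list. The other leading higher genes were EFS (a docking protein for SRC family kinases; log2 effect 2.65), JUN (an AP-1 subunit; 1.83), EVI2A (a membrane protein gene; 1.81), AKAP6 (an anchor of protein kinase A; 1.62), PAGE2 (a cancer-testis antigen; 1.45) and F2RL2 (protease-activated receptor 3; 1.39). EFS (1.99 on the high fat and 3.32 on the ketogenic diet) and AKAP6 (1.29 on the high fat and 1.94 on the ketogenic diet) had larger estimates on the ketogenic diet, with neither difference past the test. EVI2A lies inside an intron of NF1 on the other strand, and the sources used here do not say whether counting used strand; TRIM51 and PAGE2 have near-identical copies among which counts may be split.

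The deepest fall among genes meeting the same conditions was that of LDB2 (a LIM-domain binding cofactor of transcription; chr4:16501541-16898809, minus strand). It had 1.44, 0.795, 0.239 and 0.342 CPM with inhibitors and 13.8, 16.7, 14.7 and 8.7 CPM without them on the high fat diet. LDB2 had 2.11, 0.465, 1.08 and 0.608 CPM with inhibitors and 8.37, 13.1, 9.25 and 21.1 CPM without them on the ketogenic diet. Treated libraries were all below untreated ones, 15.3-fold in the mean fit (log2 effect -3.93, SE 0.39, adjusted p = 1.5e-05; difference 0.67, 95% interval -0.87 to 2.21). NRCAM (a neuronal cell adhesion molecule; chr7:108147623-108456717, minus strand) had 2.29, 1.84, 2 and 1.55 CPM with inhibitors and 16.2, 14.4, 16 and 9.47 CPM without them on the high fat diet. NRCAM had 3.83, 4.94, 2.13 and 1.32 CPM with inhibitors and 8.27, 11.4, 8.26 and 8.61 CPM without them on the ketogenic diet. It was separated on both diets, with effects of -2.87 on the high fat and -1.58 on the ketogenic diet (mean log2 effect -2.22, SE 0.22, adjusted p = 7.52e-06), and its difference was 1.29, SE 0.42, adjusted p = 0.0644, with a 95% interval of 0.39 to 2.18 that left out 0. BMP7 (a secreted bone morphogenetic protein; chr20:57168748-57266629, minus strand) had 5.78, 7.85, 3.75 and 4.04 CPM with inhibitors and 20.4, 17.8, 20.5 and 22.2 CPM without them on the high fat diet. BMP7 had 9.02, 4.73, 4.55 and 6.16 CPM with inhibitors and 17.3, 22.8, 17.6 and 16.7 CPM without them on the ketogenic diet. Treated values were again all below untreated ones (log2 effect -1.76, SE 0.17, adjusted p = 5.66e-06; difference 0.32, 95% interval -0.37 to 1.00).

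RORA (a nuclear receptor; chr15:60488284-61229319, minus strand) was one of the genes that fell by nearly the same size on both diets. It had 10.6, 13.2, 10.8 and 12.8 CPM with inhibitors and 29.2, 28.5, 28.3 and 27.5 CPM without them on the high fat diet. RORA had 9.53, 9.83, 12.2 and 14.5 CPM with inhibitors and 21.7, 26.6, 19.2 and 31.7 CPM without them on the ketogenic diet. Every treated library was at or below 14.5 CPM and every untreated one at or above 19.2 CPM (log2 effect -1.19, SE 0.11, adjusted p = 5.45e-06; difference 0.15, 95% interval -0.31 to 0.62). Even falls were also found for COL13A1 (a transmembrane collagen; log2 effect -1.67), TRABD2B (a protease that cleaves Wnt proteins; -1.62), TSHZ2 (a zinc finger transcription factor; -1.30) and BLACAT1 (a long noncoding RNA; -1.27). The remaining leading lower genes were GPR153 (an orphan receptor; log2 effect -2.20), DNAH9 (an axonemal dynein chain; -2.17), CNTN1 (a neural adhesion protein; -1.91), MOXD1 (a monooxygenase-like protein; -1.78), SEMA6B (a transmembrane semaphorin; -1.72), DKK3 (a secreted protein of the Dickkopf family; -1.70), ST6GALNAC2 (a sialyltransferase; -1.64), FOXL1 (a forkhead factor; -1.44), VCAN (versican, a large matrix proteoglycan; -1.31) and the ribosomal RNA RNA28S5 (-1.61). By correlation of log2 CPM over the 16 libraries, the genes most like FMOD were C1QTNF3 (r = 0.961), FGL2 (0.959) and TTR (0.947), and those most like LDB2 were GPR153 (0.964), KAZALD1 (0.96) and DKK3 (0.956). These libraries share the treatment difference and the ribosomal share, so the values are a description.

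**Figure D2:**
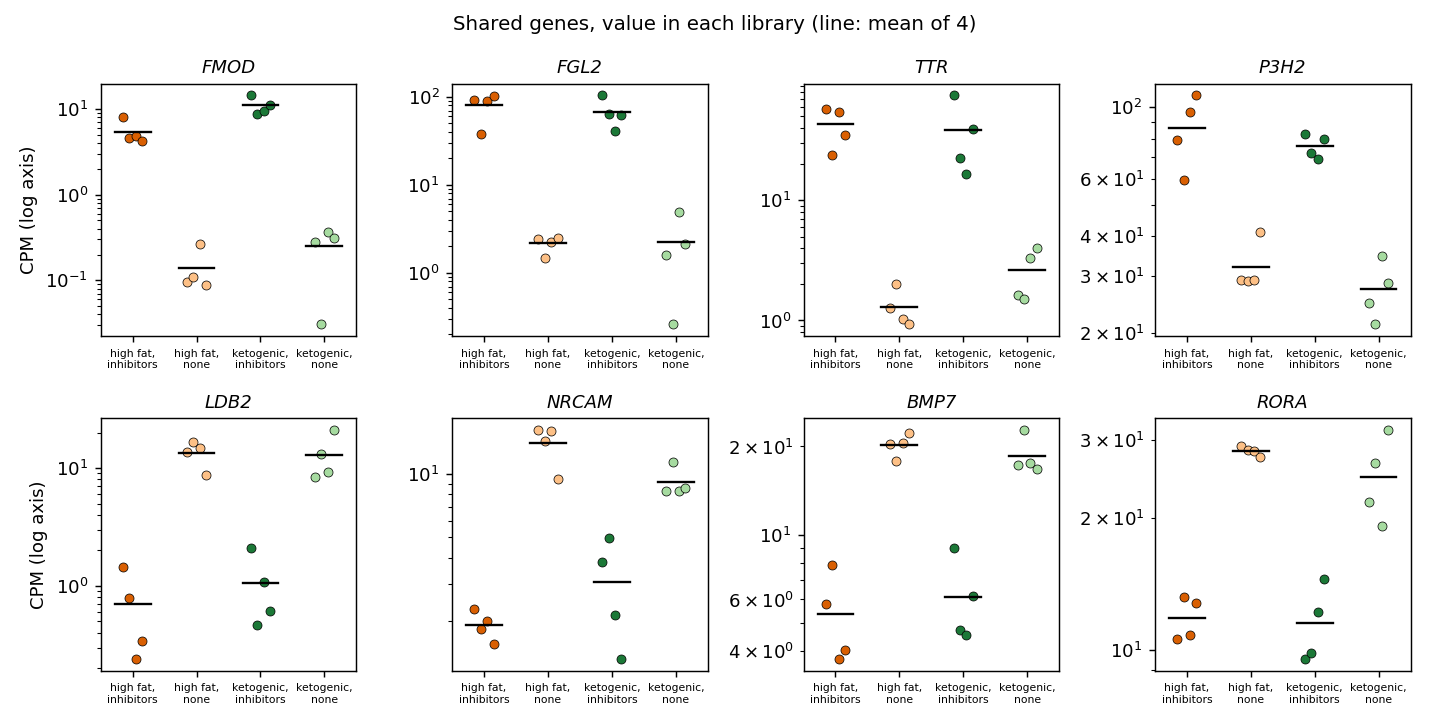
CPM on a log axis in each of the 16 libraries for 4 shared genes that rose with inhibitors (top) and 4 that fell (bottom); points are libraries, lines are the means of 4, and on each diet the inhibitor group stands left of the untreated one. For FMOD the treated libraries span 4.21 to 14.5 CPM and the untreated ones 0.0306 to 0.37 CPM, and in all 8 genes treated and untreated libraries are separate on each diet.

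Of the gene lists, that of the inhibited pathway itself comes first. Counts per list here and below are to be set beside 19.4% higher, 18.4% lower and 13.9% shared over all genes tested. Of 18 tested genes of the RAF, MEK and ERK core, 6 were higher and 3 lower, and 3 were shared: SHOC2 (a scaffold that helps RAF activation; log2 effect 0.23) rose, and BRAF and NF1 (a RAS inhibitor; -0.40) fell. BRAF (chr7:140719327-140924928, minus strand) had 13.8, 12.4, 12.2 and 10.9 CPM with inhibitors and 17.9, 18.6, 20.1 and 21.2 CPM without them on the high fat diet. BRAF had 12.2, 11.7, 14.9 and 10.2 CPM with inhibitors and 16.3, 16.4, 16.4 and 17.1 CPM without them on the ketogenic diet. Treated libraries lay below untreated ones on both diets, by 1.46-fold (log2 effect -0.55, SE 0.081, adjusted p = 0.000179), a fall that did not pass with scaling by library size alone (log2 effect -0.27). Tested on the ketogenic diet alone, BRAF did not pass (-0.44, adjusted p = 0.0618). The genes of the drug targets MEK1 and MEK2, MAP2K1 (0.11, adjusted p = 0.174) and MAP2K2 (-0.05, adjusted p = 0.653), did not pass, nor did MAPK3 (-0.01, adjusted p = 0.916; 0.27 with scaling by library size alone). Kinase activity was not measured.

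Among 20 tested output genes of the ERK pathway 3 were higher and 4 lower, near the shares over all genes tested (19.4% and 18.4%). Their median log2 effect was -0.04 (0.22 with scaling by library size alone). DUSP6, the phosphatase that shuts off ERK and is normally induced by it, was higher with inhibitors. It had 510, 457, 448 and 449 CPM with inhibitors and 218, 249, 212 and 485 CPM without them on the high fat diet. DUSP6 had 360, 350, 344 and 535 CPM with inhibitors and 291, 306, 345 and 287 CPM without them on the ketogenic diet. The groups overlapped on both diets: high fat untreated replicate 4 lay within the treated range, and ketogenic inhibitor replicate 3 (344 CPM) lay below ketogenic untreated replicate 3 (345 CPM). Ketogenic inhibitor replicate 4 was the highest of all libraries (log2 effect 0.53, SE 0.15, adjusted p = 0.0135). Without that library its effects were 0.68 on the high fat and 0.19 on the ketogenic diet, so it passed the mean test but was no longer shared. Without the libraries above 30% ribosomal RNA it no longer passed (log2 effect 0.38). IER3, an ERK-induced survival gene, also rose in the mean over diets (0.78, adjusted p = 0.00348), while its effect on the ketogenic diet alone did not pass (adjusted p = 0.209). EPHA2, a receptor kinase, fell in the mean over diets (-0.86, adjusted p = 0.00117). Its effect on the ketogenic diet alone did not pass either (-0.63, adjusted p = 0.177), and its libraries overlapped there. With the ribosomal share as a covariate neither IER3 nor EPHA2 passed the mean test. SPRY4, another feedback inhibitor, had -0.40 (adjusted p = 0.0179) with -0.63 on the high fat and -0.18 on the ketogenic diet, below the ratio. CCND1, which encodes cyclin D1, did not pass (-0.16, adjusted p = 0.281). Of 18 tested receptor kinase genes linked to drug resistance 3 were higher and 5 lower, and ERBB2 alone of them was shared (-0.31); EGFR fell in the mean test (-0.74, adjusted p = 0.00935) with -0.45 on the high fat and -1.03 on the ketogenic diet, below the ratio, and its difference was -0.58, 95% interval -1.43 to 0.28. The ERBB2 call ended with scaling by library size alone. Without libraries above 30% ribosomal RNA 1 of the 20 output genes was higher and 4 were lower, and without the 4 libraries least like their groups 6 and 5.

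With all 16 libraries in the fit, AP-1 and immediate early genes formed the list with the most shared members that rose. For JUN and EGR2 this rested on ketogenic inhibitor replicate 4, as given below. Of 21 tested, 9 were higher and 1 lower, and FOSB, JUN, JUNB, EGR2, IER3 and NR4A2 were shared, all higher; the median log2 effect was 0.47, against -0.01 over all genes tested. JUN (chr1:58780788-58784327, minus strand) had 53.3, 48.6, 55.4 and 55.9 CPM with inhibitors and 9.97, 7.97, 8.11 and 13.4 CPM without them on the high fat diet. JUN had 24.4, 23.5, 19.7 and 59.9 CPM with inhibitors and 16.9, 13.3, 16.5 and 7.69 CPM without them on the ketogenic diet. Treated libraries were above untreated ones on both diets, with effects of 2.43 on the high fat and 1.23 on the ketogenic diet (mean 1.83, SE 0.23, adjusted p = 7.73e-05), and the ketogenic effect alone did not pass (adjusted p = 0.0629). The ratio of its effects was 0.504, just inside the limit. Without ketogenic inhibitor replicate 4 the ketogenic effect was 0.73, the ratio 0.299 and the mean effect 1.58, so JUN passed the mean test but was no longer shared. EGR2 had 28.8, 27.6, 30 and 31.2 CPM with inhibitors and 5.09, 6.76, 4.31 and 24.7 CPM without them on the high fat diet. EGR2 had 14.3, 19.8, 16.9 and 82 CPM with inhibitors and 10.2, 13.7, 13.1 and 9.24 CPM without them on the ketogenic diet. Although the groups did not overlap, its ketogenic inhibitor replicate 4 was 82 CPM beside 14.3 to 19.8 CPM in the other 3, and the mean effect without it was 1.04, against 1.52, SE 0.42, adjusted p = 0.0113 with all libraries. Its effects were then 1.52 on the high fat and 0.56 on the ketogenic diet, and EGR2 was no longer shared. DESeq2 did not call EGR2. FOSB (0.87), the nuclear receptor NR4A2 (0.81) and JUNB (0.60, adjusted p = 0.0272) moved by less. IER3 had 328, 234, 184 and 495 CPM with inhibitors and 211, 176, 190 and 231 CPM without them on the ketogenic diet. Its groups overlapped there, and ketogenic inhibitor replicate 4 was again the highest library. Whether IER3, FOSB, NR4A2 and JUNB stay shared without that library was not examined. Without libraries above 30% ribosomal RNA 5 of the 21 were higher and 1 lower, and without the 4 libraries least like their groups 13 and 2.

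Of 15 cytokine genes tested 3 were higher and none lower, a share of higher genes near the 19.4% over all genes tested. Without the libraries above 30% ribosomal RNA 1 was higher. The shared ones were IL1B (the inflammatory cytokine interleukin 1 beta; log2 effect 1.88, SE 0.43, adjusted p = 0.00391) and LIF (leukaemia inhibitory factor; 0.99, SE 0.31, adjusted p = 0.0216). Of 21 interferon response genes 5 were higher and 2 lower, and 4 were shared. IFIT3, an antiviral protein induced by interferon, had 33.4, 36.5, 42.7 and 41.3 CPM with inhibitors and 13.5, 13.1, 11 and 16.7 CPM without them on the high fat diet. IFIT3 had 23.4, 30.6, 28.9 and 28.6 CPM with inhibitors and 17.9, 12.7, 17.4 and 13.3 CPM without them on the ketogenic diet. It was separated on both diets (log2 effect 1.18, SE 0.10, adjusted p = 3.15e-06). IFIT2 (0.53) and MX2 (0.33), both interferon-induced antiviral genes, rose, while OAS1, which makes the activator of RNase L, fell (-0.48, adjusted p = 0.00163).

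The pigment genes TYR and SLC24A5 rose at very low levels. TYR encodes tyrosinase, the first enzyme of melanin synthesis, and SLC24A5 an ion exchanger of the melanosome. Of 18 tested melanocyte genes 5 were higher and 1 lower, and these 2 were the shared ones; MITF, the master regulator of pigment genes, had 0.06 (adjusted p = 0.548). SLC24A5 (chr15:48120972-48142672, plus strand) had 2.96, 0.71, 4.76 and 0.96 CPM with inhibitors and 0.284, 0.368, 0.0239 and 0 CPM without them on the high fat diet. SLC24A5 had 5.4, 5.44, 5.93 and 2.74 CPM with inhibitors and 0.0773, 0, 0.175 and 0.291 CPM without them on the ketogenic diet. The groups were separate on both diets, with 1 untreated library at 0 on each (log2 effect 4.51, SE 0.65, adjusted p = 0.000206). TYR had 0.618, 0.406, 0.75 and 0.244 CPM with inhibitors and 0.158, 0.0217, 0.0718 and 0.315 CPM without them on the high fat diet. TYR had 1.83, 2.46, 2 and 3.94 CPM with inhibitors and 0.0928, 0, 0.214 and 0.922 CPM without them on the ketogenic diet. On the high fat diet one treated library overlapped the untreated ones, on the ketogenic diet none did, and the effects were 1.77 on the high fat and 3.13 on the ketogenic diet (mean 2.45, SE 0.60, adjusted p = 0.00502). With the ribosomal share as a covariate neither passed.

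The promoters of these pigment genes are shown because CATGTG, a form of the E-box that MITF can bind, occurs in both; each spans 250 bases before to 50 bases after the RefSeq start in GRCh38.p14, with TYR on chr11:89177625-89177924, plus strand, and SLC24A5 on chr15:48120740-48121039, plus strand. Capitals mark the matches to CATGTG on either strand, at 104 and 12 bases before the start of TYR and, on the reverse strand as CACATG, 15 bases before that of SLC24A5; 11.1% of 35116 promoters hold a match.
TYR promoter: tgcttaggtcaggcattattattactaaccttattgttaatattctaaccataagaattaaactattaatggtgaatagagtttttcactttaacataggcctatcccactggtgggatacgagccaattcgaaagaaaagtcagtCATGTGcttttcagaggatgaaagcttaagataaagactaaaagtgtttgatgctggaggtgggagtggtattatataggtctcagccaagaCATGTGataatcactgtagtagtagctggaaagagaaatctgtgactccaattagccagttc
SLC24A5 promoter: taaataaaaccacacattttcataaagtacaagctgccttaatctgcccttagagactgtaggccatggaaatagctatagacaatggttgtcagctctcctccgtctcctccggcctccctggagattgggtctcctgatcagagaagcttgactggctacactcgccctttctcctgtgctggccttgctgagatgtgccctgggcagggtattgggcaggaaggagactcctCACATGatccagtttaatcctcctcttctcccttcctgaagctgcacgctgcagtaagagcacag
On either strand CATGTG also occurs in the promoters of C1QTNF3, FANCL and BCL2A1, which rose, and of AKR1C1, AKR1C2, ABCC2 and IDH2, which fell. Counts of motifs over all shared genes are not given. A RefSeq promoter was matched to only 75.1% of the higher and 71.1% of the lower shared genes.

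Collagen and matrix genes formed the list with the most shared members that fell. Of 25 tested, 2 were higher and 11 lower, and 6 were shared and lower: COL4A2, COL5A1, COL5A2, LAMB1, NID1 and FBLN1. The median log2 effect was -0.41, against -0.01 over all genes tested, and -0.12 with scaling by library size alone. COL5A1 (a chain of fibrillar type V collagen; chr9:134641774-134844843, plus strand) had 17.7, 20.4, 16.5 and 16.7 CPM with inhibitors and 41.9, 43.3, 41.4 and 45.2 CPM without them on the high fat diet. COL5A1 had 15.7, 12.9, 14.1 and 10.6 CPM with inhibitors and 35, 20.7, 30 and 27.4 CPM without them on the ketogenic diet. Every treated library was below every untreated one on its diet (log2 effect -1.18, SE 0.10, adjusted p = 3.15e-06; difference 0.19, 95% interval -0.24 to 0.61). Its partner chain COL5A2 fell by a similar amount on both diets (-0.63 on the high fat and -0.86 on the ketogenic diet). The basement membrane genes COL4A2 (a type IV collagen chain; -0.53), LAMB1 (a laminin chain; -0.58) and NID1 (nidogen, which links laminin and collagen IV; -0.64) were lower, and so was FBLN1 (fibulin 1; -0.94), which is also on the fibroblast marker list. With scaling by library size alone COL4A2, LAMB1 and NID1 did not pass, and with the ribosomal share as a covariate neither these 3 nor FBLN1 did. Without libraries above 30% ribosomal RNA 8 of the 25 were lower, and without the 4 libraries least like their groups 14.

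Receptor and adhesion lists had more lower than higher calls, with shares to be set beside 18.4% lower and 19.4% higher over all genes tested, and their medians turned positive with scaling by library size alone. Of 15 integrin genes 4 were lower and none higher (median log2 effect -0.18, and 0.11 with that scaling), and ITGA3, a laminin-binding integrin chain, was the shared one (-0.86, SE 0.12, adjusted p = 0.000149). Of 18 neural adhesion and guidance genes 3 were higher and 7 lower (median -0.17 and 0.11): NRCAM, CADM3 (an adhesion molecule of axons; -2.15), CDH13 (a membrane-anchored cadherin; -0.90) and UNC5B (a netrin receptor; -0.97) were shared and lower, and SLIT2, the secreted ligand of Robo receptors, shared and higher (0.77). Among 21 semaphorins, plexins and neuropilins 1 was higher and 4 lower (median -0.07 and 0.19), the shared ones being the ligand SEMA3D (0.91), higher, and SEMA6B, SEMA4D (-0.38) and the receptor PLXND1 (-0.67, SE 0.10, adjusted p = 0.000201), lower. This share of lower genes is near that over all genes. PLXND1 had nearly the same effect on each diet, -0.68 on the high fat and -0.66 on the ketogenic diet. Among 18 proteases and inhibitors of the matrix 3 were higher and 2 lower, and ADAM12 (0.57) and ADAMTS1 (0.37), both metalloproteases, were shared and higher; without the 4 libraries least like their groups 10 were higher and 4 lower. MMP2, a gelatinase, was shared and lower (-0.32, adjusted p = 0.0449), a call that leaving out single libraries ended, as it did for SEMA4D. Of 19 genes of the dedifferentiated melanoma state 2 were higher and 8 lower, and the shared ones were JUN and TWIST1 (0.25), a mesenchymal factor whose call also ended when single libraries were left out, against TGFBI (a matrix protein; -0.92) and LOXL2 (a collagen crosslinking enzyme; -0.90), which fell.

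**Figure D3:**
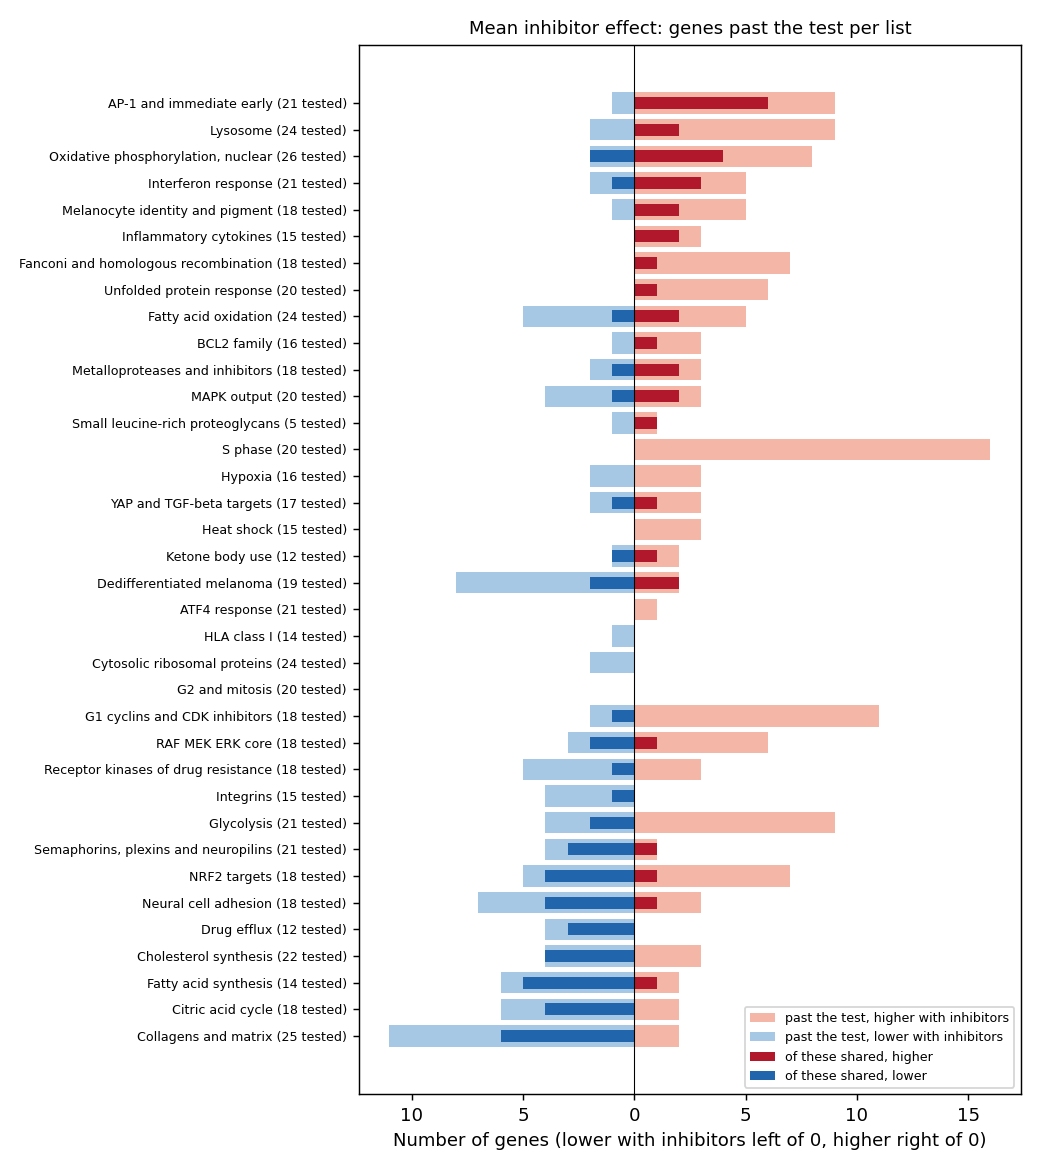
Number of genes that passed the test of the mean inhibitor effect in each of 36 pathway lists, with genes higher with inhibitors right of 0 and lower ones left of it; pale bars count all that passed and dark bars the shared ones. AP-1 and immediate early genes have 6 shared higher genes and collagens and matrix 6 shared lower ones, while S phase has 16 genes that passed and no shared one.

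In fatty acid and cholesterol synthesis and the citric acid cycle, shared genes were lower with inhibitors with 1 exception, SREBF1. In fatty acid synthesis 2 of 14 tested genes were higher and 6 lower (median log2 effect -0.29, and 0.01 with scaling by library size alone). ACACA (-0.52) and ACACB (-0.62), the acetyl-CoA carboxylases, the desaturases FADS1 (-0.40) and FADS2 (-0.37) and malic enzyme ME1 (-0.36) were shared and lower, and SREBF1, a transcription factor that drives this pathway, was shared and higher (0.38, adjusted p = 0.00531). Cholesterol synthesis had 3 higher and 4 lower of 22, a share of lower genes near the 18.4% over all genes tested. Its median log2 effect was -0.06 (0.09 on the high fat and -0.04 on the ketogenic diet), and 0.23 with scaling by library size alone. The lower 4 were shared. They were SREBF2, the pathway's main transcription factor (-0.58), and the enzymes MSMO1 (-0.65), FDFT1 (-0.33) and MVD (-0.37, adjusted p = 0.0455). Without the libraries above 30% ribosomal RNA 1 of the 22 was lower, and without the 4 libraries least like their groups 7. With scaling by library size alone no call remained for these lower shared genes of fatty acid and cholesterol synthesis. In the citric acid cycle 2 of 18 were higher and 6 lower, with citrate synthase CS (-0.29), IDH2 (-0.54), pyruvate carboxylase PC (-0.36) and the aconitase ACO1 (-0.20; 0.08 with scaling by library size alone) shared and lower. The median log2 effect of this list was -0.01, and 0.26 with scaling by library size alone, where CS, IDH2 and PC did not pass. Without libraries above 30% ribosomal RNA 3 of the 18 were lower. Of 26 nuclear genes of oxidative phosphorylation 8 were higher and 2 lower; the complex I subunits NDUFB3, NDUFB8 and NDUFS3 and the complex IV subunit COX7A2 were shared and higher, and UQCRC2 of complex III (-0.56) and SDHA of complex II (-0.24; 0.04 with scaling by library size alone) shared and lower. Without libraries above 30% ribosomal RNA 2 of the 26 were higher and 1 lower, and without high fat inhibitor replicate 3 alone 5 were higher. The calls of MVD, ACO1 and ME1 ended when single libraries were left out.

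Of 12 tested genes of ketone body use 2 were higher and 1 lower. OXCT1, the enzyme that lets cells burn ketone bodies, averaged 68.3 ± 8.37 CPM with inhibitors and 38.2 ± 1.25 CPM without them on the high fat diet, and 63.2 ± 13.4 CPM with inhibitors and 46.8 ± 5.78 CPM without them on the ketogenic diet (SD, n = 4 each), a log2 effect of 0.64, SE 0.096, adjusted p = 0.000198. In fatty acid oxidation 5 of 24 were higher and 5 lower; CPT2 (0.35), which re-forms acyl-CoA inside mitochondria, was shared and higher, as was the carnitine carrier SLC25A20 (0.25, adjusted p = 0.0475, lost when single libraries were left out), and PPARA, the nuclear receptor that induces this pathway, shared and lower (-0.67). Glycolysis had 9 higher and 4 lower of 21, and its shared genes were PFKM (-0.35) and ALDOC (-0.66), both lower. The calls of PPARA, PFKM and ALDOC ended with scaling by library size alone.

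Among NRF2 targets and drug efflux genes the shared ones other than NFE2L2 were lower with inhibitors. Of 18 targets of NRF2, the regulator of the oxidative stress response, 7 were higher and 5 lower, and NFE2L2, which encodes NRF2, was shared and higher (0.22). The aldo-keto reductase AKR1C2 had 27.3, 21.5, 25.2 and 20.3 CPM with inhibitors and 60.7, 51.8, 54.4 and 23.2 CPM without them on the high fat diet. AKR1C2 had 23.2, 38.6, 36.7 and 32.5 CPM with inhibitors and 95.4, 107, 70.1 and 65.1 CPM without them on the ketogenic diet. On the ketogenic diet treated and untreated libraries did not overlap, while on the high fat diet untreated replicate 4 lay within the treated range (log2 effect -1.19, SE 0.18, adjusted p = 0.000207; difference -0.36, 95% interval -1.09 to 0.38). Its paralogues AKR1C1 (-0.89) and AKR1C3 (-0.78) moved in the same direction, but these genes are near-identical and their counts may be split among them. Of 12 drug efflux transporters 4 were lower and none higher, and ABCC1 (-0.32), ABCC2 (-1.03) and ABCC3 (-1.42) were shared. Without the 4 libraries least like their groups 3 of these transporters were higher and 4 lower, and the ABCC1 call ended with scaling by library size alone.

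Other lists held 0 to 2 shared genes each. Among 24 lysosomal genes 9 were higher and 2 lower, with CTSK (cathepsin K; 0.49) and the autophagy receptor SQSTM1 (0.42) shared. DNAJC3 of the unfolded protein response (0.41; 6 of 20 higher, none lower), BAK1 of the BCL2 family (0.33; 3 higher and 1 lower of 16) and ID2 among YAP and TGF-beta targets (1.04; 3 higher and 2 lower of 17) were shared and higher. The small proteoglycan list had 5 tested genes, 1 higher (FMOD) and 1 lower. Heat shock (3 of 15 higher), hypoxia (3 higher and 2 lower of 16), the ATF4 response (1 of 21 higher), HLA class I (1 of 14 lower) and cytosolic ribosomal proteins (2 of 24 lower) had no shared gene. Of the ribosomal protein genes 20 were lower without the 4 libraries least like their groups, 6 without ketogenic inhibitor replicate 1 alone, and 0 without high fat inhibitor replicate 4. Without the same 4 libraries 12 of the 20 unfolded protein response genes were higher and 1 lower, and 10 were higher without high fat untreated replicate 4 alone. CTSK and BAK1 lost their calls when single libraries were left out.

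S phase genes passed the mean test often, but none of them was shared. Of 20 S phase genes 16 were higher and none lower, yet 0 were shared and 15 passed the test of the difference between diets. CDC6, which loads the replicative helicase, averaged 64.1 ± 8.53 CPM with inhibitors and 15.4 ± 1.06 CPM without them on the high fat diet, and 51.7 ± 17.6 CPM with inhibitors and 43.8 ± 12.3 CPM without them on the ketogenic diet (SD, n = 4 each). Its effects were 2.06 on the high fat and 0.24 on the ketogenic diet, a difference of -1.82, SE 0.33, adjusted p = 0.00921. Of the 4 group means that of high fat untreated metastases was the lowest, with the other 3 between 43.8 and 64.1 CPM. CCNE2, which encodes cyclin E2, behaved likewise with 2.71 on the high fat and 0.35 on the ketogenic diet (difference -2.36, SE 0.42, adjusted p = 0.00814), and KDR, a VEGF receptor, with 1.78 on the high fat and 0.27 on the ketogenic diet (difference -1.51, SE 0.32, adjusted p = 0.0164). Of 18 G1 cyclins and inhibitors 11 were higher and 2 lower, with RBL2, a retinoblastoma-like repressor, alone shared (-0.39). Fanconi and recombination genes had 7 of 18 higher, 7 past the difference test, and FANCL, a ubiquitin ligase of the pathway, alone shared (0.63; 0.72 on the high fat and 0.54 on the ketogenic diet). Of 20 G2 and mitosis genes 0 passed edgeR's mean test, 3 had an unadjusted p under 0.05, and DESeq2 called 2 and limma voom 8. Without the 4 libraries least like their groups 17 of these 20 were higher, and with a single library left out up to 4 were, high fat untreated replicate 4 being one such library. Fanconi and recombination genes then had 17 of 18 higher, and 14 without ketogenic inhibitor replicate 1 alone.

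**Figure D4:**
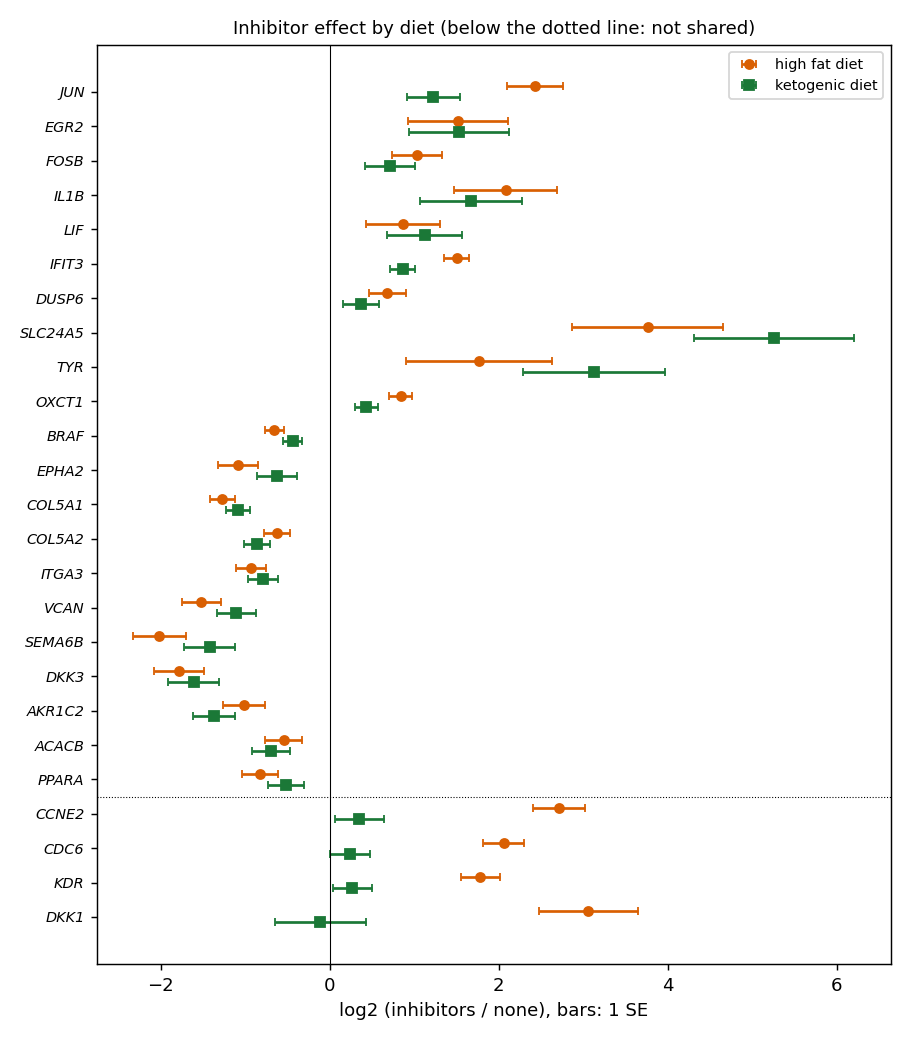
Log2 ratio of inhibitor-treated over untreated metastases on the high fat diet (circles) and the ketogenic one (squares) with 1 SE for genes named in the text. Above the dotted line are shared genes, whose symbols lie on the same side of 0, for example COL5A1 at -1.27 and -1.08; below it CCNE2, CDC6, KDR and DKK1 have effects of 1.78 to 3.06 on the high fat diet and of -0.11 to 0.35 on the ketogenic diet.

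At the other end were genes past the test of the difference with at least 5 CPM in a group. DKK1, ESM1, CYP24A1, LINC00663, TMEM59L and BEST1 were the extremes of these. DKK1 (a secreted Wnt inhibitor) had 3.06 on the high fat and -0.11 on the ketogenic diet, with group means of 26.9 ± 7.79 CPM with inhibitors and 3.21 ± 2.18 CPM without them on the high fat diet, and 12.3 ± 10.3 CPM with inhibitors and 13.3 ± 3.56 CPM without them on the ketogenic diet (SD, n = 4 each; difference -3.17, SE 0.78, adjusted p = 0.0288). ESM1 (an endothelial proteoglycan) had 3.97 on the high fat and 0.53 on the ketogenic diet (difference -3.44, SE 0.81, adjusted p = 0.0231). Endothelial markers, KDR among them, summed to 80.9 to 90.5 CPM in treated and 24.1 to 45 CPM in untreated metastases on the high fat diet and to 39.8 to 55.1 CPM in treated and 37.9 to 48.1 CPM in untreated ones on the ketogenic diet, and their part in the values of KDR and ESM1 was not tested. SLC16A6, a monocarboxylate transporter family member, had 2.34 on the high fat and 0.80 on the ketogenic diet (difference -1.54, SE 0.45, adjusted p = 0.0463). In the other direction LINC00663 (difference 3.41, SE 0.66, adjusted p = 0.0103), TMEM59L (2.91, SE 0.50, adjusted p = 0.00814) and BEST1, a chloride channel (2.89, SE 0.56, adjusted p = 0.0113), fell mainly on the high fat diet. CYP24A1, which degrades vitamin D, had 0.58 on the high fat and -3.25 on the ketogenic diet (difference -3.83, SE 1.05, adjusted p = 0.0366) and did not pass the mean test.

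Small nuclear and ribosomal RNAs were part of the lower shared set, which held 16 rRNA and 11 snRNA genes of the GENCODE annotation. RNU2-1, the U2 RNA of the spliceosome, had 3.07, 5.29, 10.9 and 7.19 CPM with inhibitors and 7.19, 46.6, 173 and 9.99 CPM without them on the high fat diet. RNU2-1 had 0.884, 0.654, 0.725 and 5.89 CPM with inhibitors and 18.9, 40.9, 5.61 and 5.63 CPM without them on the ketogenic diet. The groups overlapped on both diets, and the high fat untreated mean came mostly from 1 library at 173 CPM (log2 effect -3.14, SE 0.78, adjusted p = 0.00747). RNU1-1, the U1 RNA, had a log2 effect of -3.44, and with the ribosomal share as a covariate both signs turned, to 1.13 for RNU2-1 and 1.17 for RNU1-1. Rows with identical values in every library, copies of a few such genes, numbered 48 in all and 24 among the shared genes, so these count one RNA more than once. In length, too, the sets differed: the median of the longest transcript was 2.9 kb in the higher and 4.46 kb in the lower shared genes, against 3.5 kb over all tested genes, and the median gene span was 18.7 kb, 63.2 kb and 30.5 kb in the same order. Across 13633 protein-coding genes the log2 effect and transcript length had Spearman's rho of -0.08 on the high fat and -0.22 on the ketogenic diet, a description over genes that are not independent. The part of the ribosomal share in this was not tested.

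On the high fat diet the summed markers of several other cell types had ranges that did not overlap between treated and untreated metastases. On the ketogenic diet this held for erythroid and plasma and for adipocyte markers. The median marker averaged 0.0178 to 0.0558 CPM per group for adipocytes, 0.0681 to 0.145 for lung epithelium and 0.0442 to 0.0572 for leukocytes. It was 0.0428 to 0.177 CPM for macrophages and neutrophils and 2.12 to 2.92 CPM for fibroblasts and mural cells. Each sum thus rests mostly on the higher markers of its list, and which cells these came from was not tested. In bulk RNA, fewer cells of a type and less RNA per cell cannot be told apart, and the sources used here do not say how reads of mouse cells were kept apart. Of 17 leukocyte markers 6 could be tested and 3 were higher; their summed level was 7.45 to 9.64 CPM in treated and 2.2 to 2.75 CPM in untreated metastases on the high fat diet, and 5.11 to 9.07 CPM in treated and 5.99 to 9.76 CPM in untreated ones on the ketogenic diet, so the ranges of treated and untreated metastases were separate on the high fat diet and overlapped on the ketogenic diet. LCP1, an actin bundler of blood cells, was shared (2.12, SE 0.32, adjusted p = 0.00019) and so was PTPRC, which encodes CD45, at under 0.3 CPM in every group mean and lost when single libraries were left out; MS4A1 was at 0 in all libraries. On the high fat diet erythroid and plasma markers summed to 45.9 to 84.6 CPM in treated and 14.1 to 22.7 CPM in untreated metastases. On the ketogenic diet they summed to 34.7 to 99.1 CPM in treated and 22 to 31.5 CPM in untreated ones, so these ranges were separate on both diets. TTR, on this list and named for its rise, averaged 42.8 CPM in treated and 1.31 CPM in untreated metastases on the high fat diet. Its ketogenic means were 38.4 CPM with inhibitors and 2.62 CPM without them. TTR thus made up much of the gap between these sums, and the sum without it was not taken. Of 6 tested markers 2 were higher, TTR among them, and none lower. Fibroblast and mural markers summed to 58.1 to 93.3 CPM in treated and 146 to 164 CPM in untreated metastases on the high fat diet and to 68.9 to 110 CPM in treated and 80.1 to 136 CPM in untreated ones on the ketogenic diet, with 1 of 11 higher and 3 lower, beside the fall of collagen genes. Endothelial markers, with the sums given beside ESM1 and made up mostly of KDR, had 1 of 8 higher, KDR itself. Lung epithelial markers had 1 of 7 lower and summed to 140 to 152 CPM in treated and 159 to 196 CPM in untreated metastases on the high fat diet and to 110 to 208 CPM in treated and 131 to 162 CPM in untreated ones on the ketogenic diet. Macrophage and neutrophil markers had 1 of 6 higher with MPO at 0, and summed to 34.3 to 53.5 CPM in treated and 45.6 to 61.6 CPM in untreated metastases on the high fat diet and to 39.2 to 64.3 CPM in treated and 42.3 to 75 CPM in untreated ones on the ketogenic diet. Adipocyte markers summed to 154 to 164 CPM in treated and 100 to 177 CPM in untreated metastases on the high fat diet and to 102 to 153 CPM in treated and 164 to 259 CPM in untreated ones on the ketogenic diet, with 0 of 3 called by edgeR (2 at an unadjusted p under 0.05, 0 by DESeq2, 1 by limma voom) with FABP4 and CIDEA at 0. Their part in the gene results was not tested.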

How the data were processed

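RNA was sequenced from 16 samples after poly(A) selection, per the labels. Per the submitters' processing notes, Bowtie2 2.1.0, RSEM 1.2.15 and the build hg38 were used; no settings, strand use or separation of mouse reads are stated there. The authors deposited RSEM expected counts per gene, 13% of them not whole, which were rounded. Members, gene lists and the ratio of 0.5 were chosen with earlier results of these data known.

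Genes were filtered with filterByExpr, scaled by TMM and tested with edgeR 4.0.16's quasi-likelihood test (robust) in R 4.3.3, in a model of 4 group means (common biological coefficient of variation 0.228). Contrasts were the mean inhibitor effect, the effect on each diet and the difference, ketogenic minus high fat. P-values were adjusted over all 16012 tested genes by Benjamini-Hochberg. Levels are CPM after TMM. SE is the size of the log2 effect divided by the square root of F, and intervals are 95%. Named were the 15 highest and 15 lowest shared genes with at least 5 CPM in the higher arm per diet and no overlapping libraries. The 5 most even genes in each direction that changed by at least 2-fold were added, with genes at the ratio's edge. Genes that differed most between diets and genes of 43 lists, OXCT1 among them, were added too. Other genes, such as FOSB, JUNB, the further shared genes of a list, RNU1-1 and RNU2-1, were named after their values were seen. Some genes that met these rules are not reported here. Nothing was dropped or imputed. Coordinates are from GENCODE 29 (GRCh38), promoters from RefSeq (GRCh38.p14). The procedure was tested on simulated data. Alternatives used DESeq2 1.42.0 and limma 3.58.1 (voom), other scalings and filters, the ribosomal share, a replicate block and single libraries left out.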

Additional observations from a re-analysis of the deposited data

Results flagged for a closer look

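In 80 groups of 4 libraries (19 genes and the ribosomal share), 16 held a library whose gap to the nearest other exceeded Dixon's 95% critical value for 4 values; chance flags about 1 in 20 groups. Ketogenic inhibitor replicate 4 was high in C1QTNF3 (168 CPM), JUN (59.9 CPM), EGR2 (82 CPM), DUSP6 (535 CPM) and RNU2-1 (5.89 CPM) and low in SLC24A5 (2.74 CPM). High fat untreated replicate 4 was high in P3H2 (41.1 CPM), EGR2 (24.7 CPM) and DUSP6 (485 CPM). High fat inhibitor replicate 1 was high in FMOD (7.95 CPM) and DUSP6 (510 CPM), and high fat untreated replicate 3 in FMOD (0.263 CPM). Ketogenic untreated replicate 2 was high in NRCAM (11.4 CPM) and BMP7 (22.8 CPM), and ketogenic untreated replicate 4 in BRAF (17.1 CPM). Ketogenic inhibitor replicate 3 had the lowest ribosomal share, 4.1%.

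The inhibitor effect differed between diets by edgeR's test of the difference in 1444 genes. For 14 of them it is given here as the log2 effect on the ketogenic diet minus that on the high fat diet. It was 3.41 for LINC00663, 2.91 for TMEM59L and 2.89 for BEST1. It was -3.17 for DKK1, -3.44 for ESM1, -3.83 for CYP24A1, -2.36 for CCNE2, -1.82 for CDC6, -1.51 for KDR and -1.54 for SLC16A6. The 4 shared genes with such a difference were DNAH9 (1.38), EVI2A (-1.20), EOGT (-0.54) and SRSF6 (-0.56), all with ratios of effects between 0.502 and 0.569.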

How the results depend on the processing

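The mean effect was passed by 6053 genes, and by 5056 (without ketogenic untreated replicate 4) to 6815 (without ketogenic inhibitor replicate 1) when single libraries were left out. It was passed by 607 with the ribosomal share as a covariate, 3942 without libraries above 30% ribosomal RNA and 331 in a test against a 1.5-fold change; fewer samples or a stricter test enter these. Shared genes numbered 2229, and 1634 (without ketogenic inhibitor replicate 4) to 3061 (without ketogenic inhibitor replicate 1) with single libraries left out. They numbered 4133 with scaling by library size alone (3884 higher and 249 lower, 1425 of them shared in both fits), where the median of all genes was 0.27 and 87.6% of calls were higher against 51.2%. The number of shared genes was 371 with the covariate, 1262 with a ratio of 2/3, 188 with a test on each diet alone and 5624 with the sign alone. With the ribosomal RNA rows taken out first 6040 genes passed the mean test, 2176 were shared and 1449 passed the difference. The difference between diets was passed by 1444 genes, 238 with library size alone, 2487 with DESeq2, 5208 with limma voom and quality weights, 30 with the covariate, 0 with edgeR without libraries above 30% ribosomal RNA (2919 at an unadjusted p under 0.05) and 3685 without the 4 libraries least like their groups (chosen after the data were seen); the range with single libraries left out was 407 to 2636, without ketogenic untreated replicate 2 and ketogenic inhibitor replicate 4. The log2 difference in ribosomal share was -1.38 to -1.16 with single libraries left out. Causes of these changes were not tested.

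Same-numbered libraries deviated together weakly or not at all (r of -0.153 to 0.207, 4 of 24 pairs above 0.1). Those 4 pairs joined ketogenic inhibitor replicates 1 and 4 to the same-numbered high fat libraries, treated (0.207 and 0.132) and untreated (0.188 and 0.161). Of 8 pairs of treated and untreated libraries on the same diet 0 were above 0.1. With the replicate block 6092 genes passed the mean test, 2242 were shared and 1433 passed the difference. The calls of MMP2 and SEMA4D ended with it.

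Signs turned with library size alone for MAPK3 (0.27), ACO1 (0.083) and SDHA (0.037), and with the covariate for RNU1-1 (1.17), RNU2-1 (1.13), RNU4-1 (2.48), RNU4-2 (2.08) and RNA18S5 (1.27). Of 2229 shared genes, 2109 had the same sign with library size alone and 2189 with the covariate. With single libraries left out, MVD, MMP2, TWIST1 and SLC25A20 lost their calls in 12 of 16 fits and ACO1 in 13 (highest adjusted p of edgeR 0.108, 0.102, 0.0963, 0.0944 and 0.106), SEMA4D, CTSK and BAK1 in 7, PTPRC in 6, ME1 in 4 and JUNB in 1, without high fat untreated replicate 3 (adjusted p = 0.0516). Depth limits genes under 1 CPM in every group, such as PTPRC.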
